A study of Rattus norvegicus with 12 samples.

Results

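Translation initiation and elongation factors were followed through 90 of the 9600 spots on a nylon cDNA array, in cultured rat hippocampal neurons that were silenced or driven to fire. A spot was taken when the array annotation gave it a single gene symbol beginning with EIF and a digit from 1 to 6, or with EEF and 1 or 2. The 90 spots stood for 46 genes. Initiation factors made up 59 clones of 32 genes and elongation factors 21 clones of 5 genes, namely EEF1A1 with 9 clones, EEF1G with 8, EEF1B2 with 2, and EEF1A2 and EEF1D with 1 each. The remaining 10 clones of 9 genes were regulators and relatives (the 4E-binding proteins, the eIF2 kinases EIF2AK1 and EIF2AK4, EIF5A, EIF1AD and the methyltransferases EEF1AKMT3 and EEF2KMT). The initiation class also took in EIF4A3 (3 clones), EIF4E2 (4 clones) and EIF6 (3 clones), whose roles are given where they are described. No spot carried the symbol EEF2. Clones of a gene are numbered from the brightest.

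Protein synthesis starts when eIF2 brings the initiator tRNA to the small ribosomal subunit, eIF3 holds the complex together, and the cap-binding eIF4F complex of EIF4E, EIF4G1 and an EIF4A helicase recruits the mRNA. In elongation eEF1A delivers each charged tRNA to the ribosome and the eEF1B subunits EEF1B2, EEF1D and EEF1G recharge eEF1A with GTP. Neurons use regulated translation in dendrites and axons during lasting synaptic change. Transcripts of elongation factors and ribosomal proteins are among those that typically begin with a terminal oligopyrimidine tract, a cytosine followed by a run of pyrimidines, through which mTOR signalling controls their translation.

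Neurons came from Sprague-Dawley rat embryos of day 18.5 and were grown for 12 days on glia, so the RNA held that of feeder cells too. Every culture was first kept for 3 h in Block, a mixture of the glutamate receptor antagonists APV (50 µM) and CNQX (40 µM) with the sodium channel blocker tetrodotoxin (100 nM). Activity was evoked by 50 µM bicuculline, an antagonist of inhibitory GABA-A receptors, with 500 µM 4-aminopyridine, a potassium channel blocker (BiC/4AP), while control cultures stayed in Block. RNA synthesis was stopped with 25 µM actinomycin D (ActD) in 6 of the 12 samples, and the others had no ActD. The samples were 5, 30 and 60 min samples of Block, BiC/4AP, Block with ActD and BiC/4AP with ActD, 1 array for each. By the labels treatment lasted for those times, whereas the methods describe a stimulus of 5 min with RNA taken then or later. Each sample pooled RNA from 3 coverslips by the labels and from separate experiments by the methods, so the question was how levels of these transcripts differed between single pooled samples with activity, with ActD and over time.

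The 12 arrays had median intensities of 24.53 to 69.755, lowest at 5 min, and the array order followed the times, so that time, array order and brightness cannot be told apart. The median correlation of an array with the others over all spots was 0.913 for the 30 min BiC/4AP array and 0.926 to 0.950 for the rest. Among neuron markers STMN2 lay at the brightness percentile of 88.9 and SNAP25 at 54.7, but the 2 TUBB3 clones were at only 29.1 and 35.2. Of the astrocyte markers GFAP was at 80.8 and VIM at 14. The median percentile was 45 over the 8 neuron marker clones and 46.5 over the 3 astrocyte marker clones. Between 88 and 90 of the 90 factor spots were above the level that 95% of blank spots stayed under, on each array. Of all spots with 1 symbol 89.6% to 97.2% were. That blank level ran from a raw intensity of 10, the value treated as a placeholder, to 22.7. Clones are human cDNA hybridized with rat RNA, so related transcripts such as those of EEF1A1 and EEF1A2 could not be separated, and fewer cells of a type could not be told from less RNA per cell.

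To show the annotated starts of these transcripts, windows of 30 bases, 15 before and 15 from the annotated rat start site, were read for the 39 of 46 genes with a RefSeq promoter entry (build GRCr8) and searched for CTTTT. The windows below belong to the elongation factors with an entry, to EIF3M and EIF4A2, whose clones are described with them, and to EIF5 and EIF6, for which differences over time were called. Capitals mark CTTTT.
EEF1A1, chr8:88225055-88225084, minus strand: tcgccttggacgttCTTTTtcgcaacgggt
EEF1B2, chr9:72074076-72074105, plus strand: tttccggccggtcccggccCTTTTtctccc
EEF1A2, chr3:188652619-188652648, minus strand: cgctcgggtacatctctgcagctgcgtcct
EEF1G, chr1:215289800-215289829, plus strand: tttctctgcggaatcaccatggcggctggg
EIF3M, chr3:111897179-111897208, minus strand: cgtaacaccgtgtggtaccgctcCTTTTcc
EIF4A2, chr11:91275309-91275338, minus strand: gtCTTTTcagtcgggcgctgagtgggtttt
EIF5, chr6:136410318-136410347, plus strand: cccggggccgagggtagcttgagcgcggcg
EIF6, chr3:164791396-164791425, minus strand: gcagcgtgtagagattggagtcgtttggtg
CTTTT stood in 5 of 39 windows, those of EEF1A1, EEF1B2, EIF3K, EIF3M and EIF4A2, which are 2 of the 4 elongation factor genes and 3 of the 28 initiation factor genes with an entry. It stood in 3.39% of all 33469 promoter windows of the same length. The reverse complement AAAAG was in 0 of the 39 and in 3.41% of all. Among ribosomal protein genes 8 held CTTTT and 46 did not, so the letters do not sort oligopyrimidine transcripts from others, and a factor without them may still begin with such a tract. A match is a run of letters near an annotated start and not a measured transcript end. In EIF3K and EIF4A2 it lay wholly before the annotated start.

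Levels are log2 intensities brought to a common mean and SD on every array, so that 0 is the array mean and a difference of 1 is about 2-fold. The median brightness percentile was 65.6 for the factors and 89.4 for elongation factors, but the index that pairs spots with genes was chosen because ribosomal protein and elongation factor spots were bright under it, so these percentiles are no finding. EEF1G clone 1, the brightest, had a mean raw intensity of 5799, and EEF1A1 clone 1 of 545. Clones of a gene differed in brightness, and even the same clone spotted at a pair of positions did. The pair of EIF5A spots, a factor that relieves stalled ribosomes and carries hypusine, had mean intensities of 227.1 and 25.38, an 8.95-fold ratio. The paired spots of EEF1G (clones 2 and 3) had 428.3 and 390, and those of EIF2B2 59.12 and 38.78. A level of 1 clone was therefore not set against that of another.

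**Figure D1:**
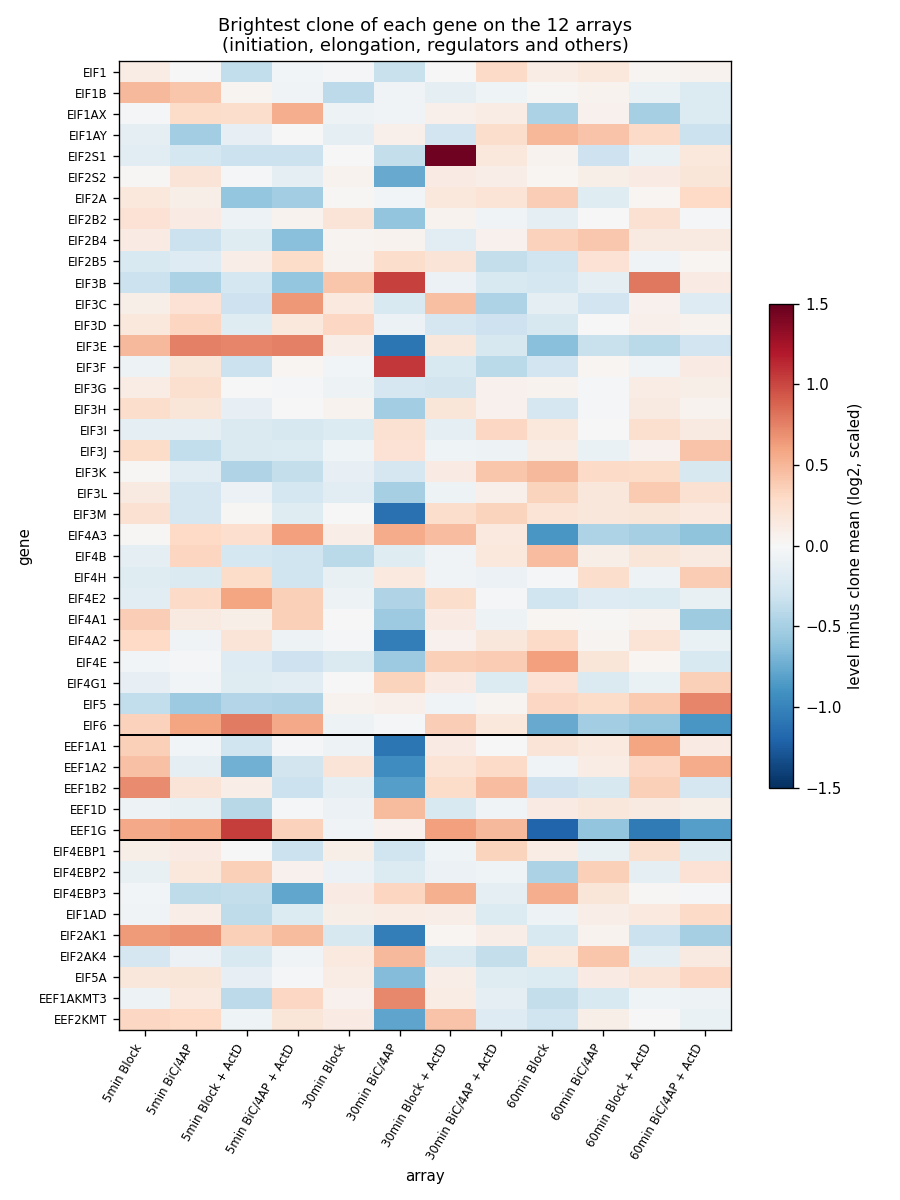
Scaled log2 level of the brightest clone of each of the 46 genes (rows) on the 12 arrays (columns), as the difference from that clone's mean over arrays. Black lines separate initiation factors, elongation factors and the others. EEF1A1, EEF1A2, EEF1B2, EIF3E, EIF3M and EIF4A2 are low on the 30 min BiC/4AP array, and EIF6 and EEF1G are lower on the 60 min arrays than on the 5 min arrays.

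The first comparison asked whether activity altered factor transcripts over all times, with 6 BiC/4AP against 6 Block arrays. No factor passed limma's test at an adjusted p of 0.05 (0 of 90, against 0.0% of all spots). Of the initiation factor clones 16 were above and 43 below 0, with a median difference of -0.09, and of the elongation factor clones 5 were above and 16 below, with a median of -0.13. Over all 9600 spots 4585 were above and 5015 below, with a median of -0.01. The pair medians varied with an SD of 0.08 for initiation and 0.25 for elongation factors over the 6 pairs, and leaving out an array gave initiation medians of -0.12 to -0.05 and elongation medians of -0.23 to -0.05, the elongation value being -0.05 without 5 min Block, 30 min Block or 30 min BiC/4AP and -0.23 without 5 min Block with ActD. Unadjusted p-values were under 0.05 for 4 factor clones and for 448 spots in all (4.67%). The lowest was that of EIF3I clone 2, a subunit of eIF3 and one of the dimmest 25% of spots, at -0.91 ± 0.22 (limma adjusted p 0.781) and lower in 5 of 6 pairs. Below, the clones with the smallest p are named among spots above the dimmest 25%. The first of these was EEF1A1 clone 8, at 0.78 to 1.22 with a median of 0.93 on Block arrays and at -0.47 to 1.03 with a median of 0.66 on BiC/4AP arrays. The groups overlapped, the difference was -0.45 ± 0.20 (SE), lower in 5 of 6 pairs, and the limma adjusted p was 0.781. EIF2S2 clone 2, a subunit of eIF2, and EIF4A2 clone 1, an eIF4F helicase, both had -0.35 ± 0.16, and EIF3E clone 4 had -0.31 ± 0.16. EIF1AX, which helps scanning for the start codon, was the clone with the smallest p above 0, at 0.25 ± 0.12 and higher in 6 of 6 pairs. The eIF3 subunit EIF3F had 0.34 ± 0.18, EEF1AKMT3, which methylates eEF1A, 0.24 ± 0.15, and EEF1D 0.18 ± 0.12. All of these had a limma adjusted p of 0.781. Without or with ActD alone, 3 against 3 arrays, 0 factors passed.

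Of the 6 pairs of arrays, the gap between initiation and elongation factor medians was widest at 30 min without ActD. Since each condition had 1 array, a pair of arrays gives a z-fold with no test, the difference in level in units of its SD among all spots, and past 1.4 it was counted. In this pair 1.4 corresponded to a difference of 0.95. With BiC/4AP 8 of 21 elongation factor clones lay past -1.4, and 5 of 59 initiation factor clones, against 5.96% of all spots. Past 1.4 there was 1 initiation factor clone, EIF3F, against 4.99% of all spots. Below 0 were 17 elongation and 38 initiation factor clones, against 49.6% of all spots. The median difference was -0.55 for elongation factors, -0.22 for initiation factors and 0.01 for all spots. The 8 were 7 of the 9 EEF1A1 clones and EEF1A2, the form of neurons and muscle. The 8 EEF1G clones were at -0.55 to 0.12, and EEF1B2 was at -0.70 and -0.69. EEF1D, the other exchange subunit, was at 0.57.

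EEF1A1 clone 1 had raw intensities of 682.55 in 30 min Block and 248.12 in 30 min BiC/4AP, and of 489.89 and 565.92 in the same with ActD. Its scaled levels were 3.33, 2.33, 3.54 and 3.41. Clone 3, with the lowest difference, had levels of 2.93 in Block, 0.91 in BiC/4AP, 2.83 in Block with ActD and 3.00 in BiC/4AP with ActD. For each of the 7 clones the 30 min BiC/4AP array was the lowest of all 12, and their differences without ActD were -1.0 to -2.02. Clones 7 and 9, annotated to the same gene, did not share this, at 0.55 and 0.16. EEF1A2 stood at 1.16 in Block and 0.03 in BiC/4AP, and with ActD at 1.16 and 1.25. With ActD at 30 min the median difference was -0.09 over EEF1A1 clones, -0.04 over elongation factors and -0.03 over initiation factors, and 0 elongation and 4 initiation factor clones passed -1.4, against 3.26% of all spots.

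**Figure D2:**
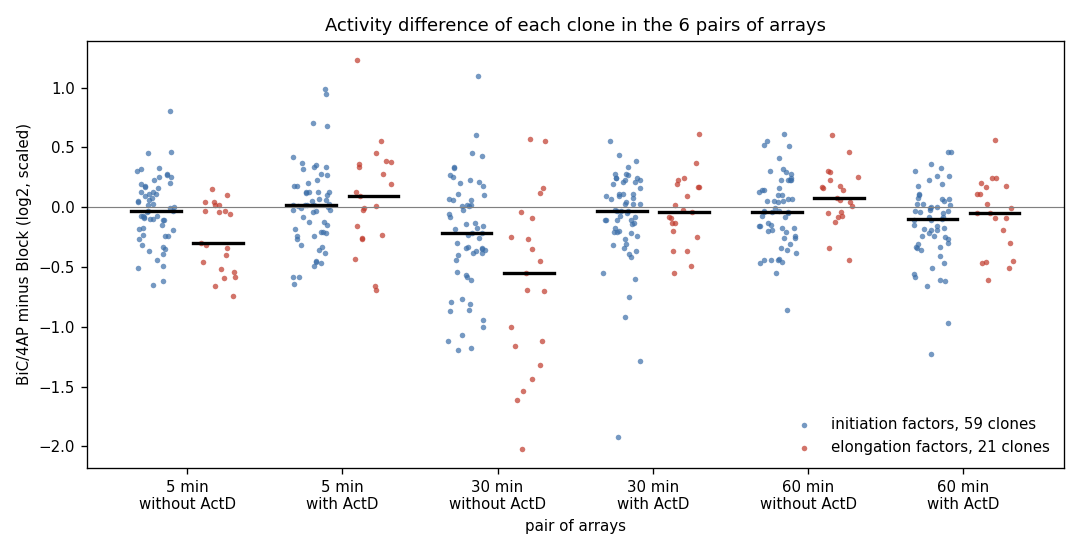
Difference in scaled log2 level between the BiC/4AP and the Block array of each pair, for 59 initiation factor clones (blue) and 21 elongation factor clones (red). Bars are medians, and each point is 1 clone on 1 pair of arrays. At 30 min without ActD the elongation median lay at -0.55 and the initiation median at -0.22.

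**Figure D3:**
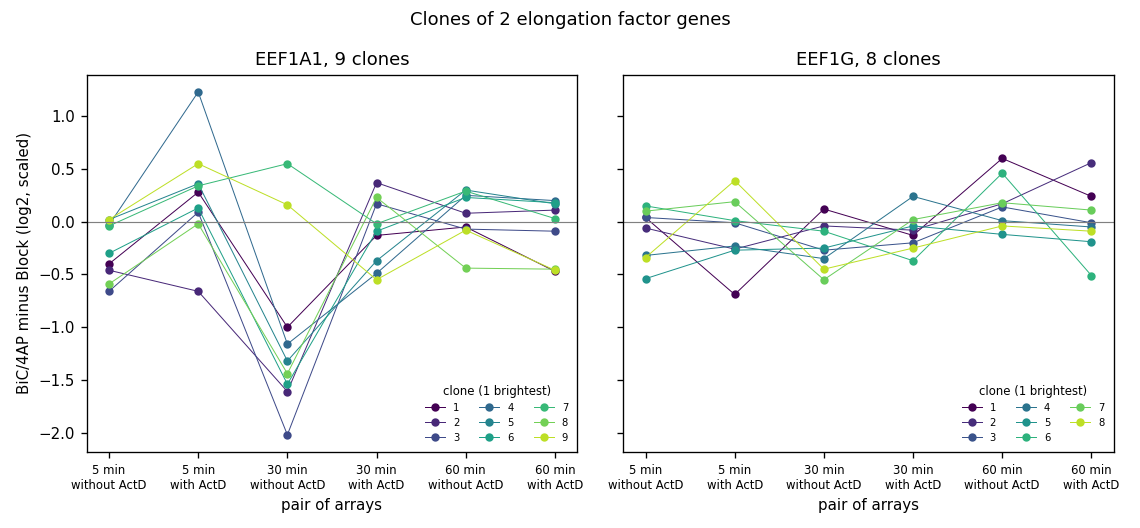
The same differences for each EEF1A1 clone (left) and each EEF1G clone (right), with a line for each clone over the 6 pairs. At 30 min without ActD 7 EEF1A1 clones lay between -1.0 and -2.02 and the EEF1G clones between -0.55 and 0.12.

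Other things moved on that array. Among the brightest 25% of spots 12.6% were past -1.4, and their median difference was 0.07. The 154 ribosomal protein clones had a median of -0.75, with 61 past -1.4. All 8 clones of neuron markers lay below 0, with a median of -0.65 and the 3 astrocyte marker clones lay above 0, with a median of 0.31, on the scaled levels. The raw sums were 737 in Block and 331 in BiC/4AP for neuron markers and 201 and 181 for astrocyte markers, while the array medians were 58.515 and 43.135. The part of cell composition or of the array itself in the EEF1A1 difference was not tested. In the other pairs elongation factor medians were -0.30 at 5 min and 0.08 at 60 min, and with ActD 0.09 at 5 min and -0.05 at 60 min. Initiation factor medians in those pairs were -0.03, -0.04, 0.02 and -0.10.

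Both arms together, 2 BiC/4AP against 2 Block arrays of 30 min, gave 0 called factors (0.0% of all spots), while unadjusted p was under 0.05 for 12 factor clones and 9.89% of all spots. Elongation factor clones were above 0 in 2 cases and below in 19, with a median of -0.25, and initiation factor clones in 20 and 39, with a median of -0.09. Over all spots 4666 were above and 4934 below, with a median of -0.01. EEF1A1 had 1 clone above and 8 below, with a median of -0.62, and the EEF1G clones were all below, with a median of -0.19. The smallest p below 0 was that of the dim EIF3I clone 2, at -1.55 ± 0.30. Among brighter spots they were those of EIF3E clone 1 (-0.80 ± 0.23), EEF1A1 clone 5 (-0.85 ± 0.24) and clone 4 (-0.82 ± 0.28) and EEF2KMT, a methyltransferase of eEF2 (-0.77 ± 0.24), and the limma adjusted p was 0.45 for each of these, EIF3I clone 2 included. EEF1A1 clone 5 stood at 2.36 and 2.25 on the Block arrays and at 1.03 and 1.88 on the BiC/4AP arrays, with ActD second. The groups did not overlap, but the share of all spots that did the same with 2 against 2 arrays is not given here. Above 0 they were EIF3I clone 1 (0.44 ± 0.20), EEF1D (0.37 ± 0.21), EIF1AY (0.38 ± 0.26) and EIF3F (0.46 ± 0.32), with limma adjusted p-values of 0.51 to 0.709. Leaving out the 30 min BiC/4AP array with ActD, so that the array that stood apart was the only one with activity, 20 factors and 1162 of all spots passed. Leaving out the 30 min BiC/4AP array instead, 0 factors passed and the elongation median was -0.02.

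By role, none of the initiation factor clones was called at 30 min over both arms, and the following describes few clones. The 4 eIF2 clones (EIF2S1 and EIF2S2) were all below 0, with a median of -0.47, and so were 7 of the 8 eIF4F clones, with a median of -0.26. Without ActD these medians were -0.59 and -0.45. With ActD they were -0.17 and -0.09, and the eIF4F clones were 4 above and 4 below 0. The part of the 30 min BiC/4AP array in these medians was not tested. EIF2S1, the eIF2 subunit that stress kinases phosphorylate, stood at -0.25 in Block, -0.61 in BiC/4AP, 1.21 in Block with ActD and -0.08 in BiC/4AP with ActD. All its other levels in the study were at or below -0.08, and its difference was -0.83 ± 0.33 (limma adjusted p 0.465). The 22 eIF3 clones were 8 above and 14 below, with a median of -0.15. Within eIF3 the members lay apart on the pair without ActD, where EIF3E clone 1 had raw intensities of 418.41 in Block and 135.95 in BiC/4AP, EIF3M was at -1.12 and EIF3F at 1.10. EIF3F had levels of 0.18 in Block and 1.28 in BiC/4AP, the highest of its 12, but -0.01 and -0.18 with ActD. The cap-binding EIF4E had differences of -0.33 and 0.03 without and with ActD and the scaffold EIF4G1 0.33 and -0.34. EIF4B and EIF4H, which assist the helicase, had 3 clones above 0 and none below, with a median of 0.15. EIF4EBP1, a repressor of EIF4E, was at -0.39 and 0.39. EIF5A clone 1 had -0.52 ± 0.23 (limma adjusted p 0.479).

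The start windows were set beside these values after both had been seen. Of the 18 clones of the 5 genes with CTTTT, 9 were past -1.4 at 30 min without ActD, with a median of -0.97, and of the 61 clones of the 34 genes without it 3 were, with a median of -0.16. The 9 were 7 clones of EEF1A1, EIF3M and EIF4A2 clone 1 (-1.0). The EIF3K clones were at -0.13 and -0.17. EIF3K and EIF4A2, with CTTTT wholly before the annotated start, were counted among the 5 genes. EEF1A1 supplied 9 of the 18 clones, which were also brighter (median percentile 78.1 against 63.7). Ribosomal protein clones with CTTTT had a median of -0.41 and those without it -0.82. Other named clones with CTTTT had a median of -0.04, with 6.08% past -1.4, and those without it 0.01, with 4.67%. With ActD the factor clones with CTTTT had a median of 0.09.

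Activity at 5 min, the stimulus length of the study, called 0 factors (0.0% of all spots; 4.8% had an unadjusted p under 0.05). Initiation factor clones were 28 above and 31 below 0, with a median of -0.01, and elongation factors 9 and 12, with a median of -0.06. Over all spots 4639 were above and 4961 below, with a median of -0.01. The smallest p above 0 was that of the dim EIF3E clone 5 (0.74 ± 0.26), followed among brighter spots by EIF6 clone 3 (0.66 ± 0.28), EIF3C (0.54 ± 0.23), EEF1A1 clone 4 (0.60 ± 0.28) and EIF4A3 clone 3 (0.47 ± 0.24). Below 0 came EIF2B4, a subunit of the eIF2 exchange factor (-0.45 ± 0.19), EIF4A1 clone 2 (-0.44 ± 0.20), EEF1G clone 5 (-0.41 ± 0.23) and EIF4H clone 1 (-0.31 ± 0.21). EIF2B4 stood at 1.05 and 0.75 on the Block arrays and at 0.60 and 0.30 on the BiC/4AP arrays. These 2 groups did not overlap, again without a share over all spots. The limma adjusted p was 0.972 for each of these clones. Other clones of EIF6 were at 0.02 and -0.07, those of EIF4A3 at 0.32 and -0.1, and EIF4A1 clone 1 at 0.01. EIF3E clones 1 to 4 were at -0.25 to 0.15. EEF1A1 had 4 clones above and 5 below 0, and EEF1G 4 and 4. Without ActD both EEF1B2 clones, at -0.52 and -0.74, and EEF1A2, at -0.58, were on the low side at 5 min too, and with ActD they were at -0.43, -0.16 and 0.45.

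At 60 min activity again called 0 factors (0.0% of all spots; 5.01% had an unadjusted p under 0.05). The median was -0.05 for initiation factors, 21 clones above and 38 below, and elongation factors had 10 clones above and 11 below. Over all spots 4750 were above and 4850 below. EIF4EBP2, a repressor of EIF4E known from neurons, had 0.59 ± 0.22, from -0.63 and -0.29 on the Block arrays to 0.20 and 0.06 on the BiC/4AP arrays. These 2 against 2 levels did not overlap, for which no share over all spots is given, and the limma adjusted p was 0.92. EIF6 clone 2 (0.42 ± 0.20), EIF1AX (0.43 ± 0.21) and EEF1G clone 2 (0.37 ± 0.20) followed. The other EIF6 clones were at -0.03 and -0.11, and the EEF1G clones were 4 above and 4 below 0. On the lower side the dim EIF3I clone 2 had -1.04 ± 0.30, and among brighter spots EIF4A3 clone 3 had -0.72 ± 0.24 with a limma adjusted p of 0.92, followed by EIF3D clone 2 (-0.47 ± 0.23), EIF1 clone 2 (-0.41 ± 0.22) and EIF4H clone 2 (-0.44 ± 0.25). The other clones of EIF4A3, the helicase of the exon junction complex, were at 0.15 and -0.09. Without and with ActD, EIF4H clone 1 was at 0.29 and 0.46 and EIF1 clone 1 at 0.05 and 0.02. EIF3D clone 1 was at 0.23 and -0.02 and clone 3 at -0.03 and -0.19.

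The study called a transcript co-regulated when its z-fold passed 1.4 one way both in the absence and in the presence of ActD. No factor did at 5 min (1.2% of all spots), and 1 did at each later time (1.22% of all spots at 30 min and 1.6% at 60 min). It was EIF3I clone 2, with z-folds of -1.76 and -3.68 at 30 min and -1.55 and -2.31 at 60 min. Its raw intensities at 30 min were 34.59 and 28.44 with Block and 11.99 and 9.19 with BiC/4AP, among the dimmest 25% of spots. Both BiC/4AP values lay under the level that 95% of blank spots stayed under, 17.5585 and 10 on those arrays. At 60 min the BiC/4AP value was 22.79, above its blank level of 15.8585, and with ActD 17.33, under 22.7215. The other EIF3I clone was at 0.64 and 0.84 at 30 min and at -0.28 and -0.20 at 60 min.

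ActD over all times, 6 arrays with against 6 without, called 0 factors (0.0% of all spots; 2.34% had an unadjusted p under 0.05). Of the elongation factor clones 17 were above and 4 below 0, with a median of 0.11, and of the initiation factor clones 33 and 26, with a median of 0.05. Over all spots 4735 were above and 4865 below. EIF4E2, a relative of EIF4E that represses capped mRNAs, had 4 clones at -0.05 to 0.29, 3 of them above 0. Its clone 1 had 0.29 ± 0.13, higher with ActD in 6 of 6 pairs. EIF2S1 (0.35 ± 0.20), EIF3E clone 3 (0.22 ± 0.15) and EIF4A2 clone 2 (0.24 ± 0.16) followed. On the other side were EIF2AK4, the kinase that senses uncharged tRNA (-0.29 ± 0.13), EEF1A1 clone 7 (-0.26 ± 0.14), EIF2B4 (-0.21 ± 0.12) and EIF3F (-0.29 ± 0.18). All had a limma adjusted p of 0.985.

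The interaction of activity with ActD, the test of whether the activity difference itself differed with transcription blocked, called 0 factors (0.0% of all spots; 2.58% had an unadjusted p under 0.05 but 0 factors). Elongation factors had a median of 0.20, with 15 clones above and 6 below 0, and initiation factors 0.08, with 38 and 21. Over all spots 4856 were above and 4744 below. The part of the 30 min BiC/4AP array in these medians was not tested either. EEF1A1 clone 3 had 0.97 ± 0.49 and clone 8 0.74 ± 0.37, EEF1A2 0.77 ± 0.41 and EEF1B2 clone 2 0.64 ± 0.34. Below 0 were EIF6 clone 1 (-0.43 ± 0.24), EIF4A3 clone 1 (-0.40 ± 0.25), EIF3B (-0.57 ± 0.42) and EEF1G clone 1 (-0.45 ± 0.35). Each had a limma adjusted p of 0.999. This interaction was 1 term over the 3 times, whereas the low EEF1A1 levels were those of 30 min without ActD. Whether they differed from the levels with ActD at 30 min alone was not tested.

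Differences over time passed the test. Between 60 and 5 min, 4 against 4 arrays, 13 of 90 factors were called (14.4%), against 19.6% of all spots. Of the 13, 4 were higher at 60 min (9.14% of all spots) and 9 lower (10.4% of all spots). The 4 against 4 levels did not overlap for 19 factors (21.1%), against 26.4% of all spots. Initiation factors had a median of 0.09 (33 above and 26 below) and elongation factors of -0.01 (9 above and 12 below). All 9600 spots had a median of 0.07 (5438 above and 4162 below), so the initiation factors lay near the whole array.

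EIF5, the factor that makes eIF2 hydrolyse its GTP at the start codon, rose most surely. It stood at -0.31, -0.38, -0.49 and -0.39 on the 5 min arrays (Block, Block with ActD, BiC/4AP, BiC/4AP with ActD) and at 0.37, 0.45, 0.33 and 0.79 at 60 min. All 60 min levels were above all 5 min levels, with the 30 min levels of 0.00 to 0.13 between them, and the difference was 0.88 ± 0.15 (limma adjusted p 0.000547). EIF2B4 rose by 0.51 ± 0.15 (limma adjusted p 0.0277). EIF4EBP3, among the dimmest 25% of spots and so outside the naming rule, rose by 0.57 ± 0.17 (limma adjusted p 0.0291).

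EIF6, which keeps the large ribosomal subunit from joining too early, had clones that went apart. Clone 1 stood at 2.22, 2.66, 2.47 and 2.44 at 5 min and at 1.13, 1.31, 1.36 and 1.01 at 60 min. Clone 2 stood at 1.31, 1.06, 1.14 and 1.08 and at 1.66, 1.65, 2.27 and 1.88, in the same order. Neither clone's groups overlapped, yet clone 1 fell by 1.25 ± 0.15 (limma adjusted p 3.65e-05) and clone 2 rose by 0.72 ± 0.16 (limma adjusted p 0.00459). Clone 3 had 0.28 ± 0.21 (limma adjusted p 0.394). No direction can therefore be given for the EIF6 transcript.

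EEF1G clone 1 fell by 1.56 ± 0.22 (limma adjusted p 0.000162), from 7.41, 7.88, 7.45 and 7.18 at 5 min to 5.65, 5.78, 6.25 and 6.02 at 60 min. Its levels on the 60 min arrays were below all others, and it was the brightest of the factor clones. Clone 3 fell by 0.61 ± 0.14 (limma adjusted p 0.00682), but clone 2, the same cDNA at another position, had -0.09 ± 0.16 (limma adjusted p 0.738), and the remaining 5 clones were at -0.21 to 0.26. EIF4A3 clone 1 fell by 0.90 ± 0.16 (limma adjusted p 0.00104), from 0.42, 0.65, 0.70 and 1.02 to -0.46, -0.09, -0.05 and -0.20, and its other clones were at 0.19 and 0.24. EIF3E clone 1 fell by 1.09 ± 0.21 (limma adjusted p 0.00188) and the other 4 EIF3E clones were at -0.41 to -0.16, all on the same side. EIF1AX fell by 0.54 ± 0.15 (limma adjusted p 0.0186) and EIF2AK1, the heme-regulated eIF2 kinase, by 0.78 ± 0.22 (limma adjusted p 0.0198). EIF4A2 clone 3 fell by 0.80 ± 0.24 and EIF4E2 clone 1 by 0.47 ± 0.16, with limma adjusted p-values of 0.0282 and 0.0487. No other clone of either gene was called. EIF4A2 clone 2 was lower too, at 0.82 to 0.88 at 5 min and 0.41 to 0.71 at 60 min. Levels at the 2 times overlapped for EIF4A2 clones 1 and 4, with clone 4 at -0.96 to -0.32 and -0.64 to -0.4. The 4 EIF4E2 clones were 2 above and 2 below 0, with a median of 0.06 and a highest value of 0.33.

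**Figure D4:**
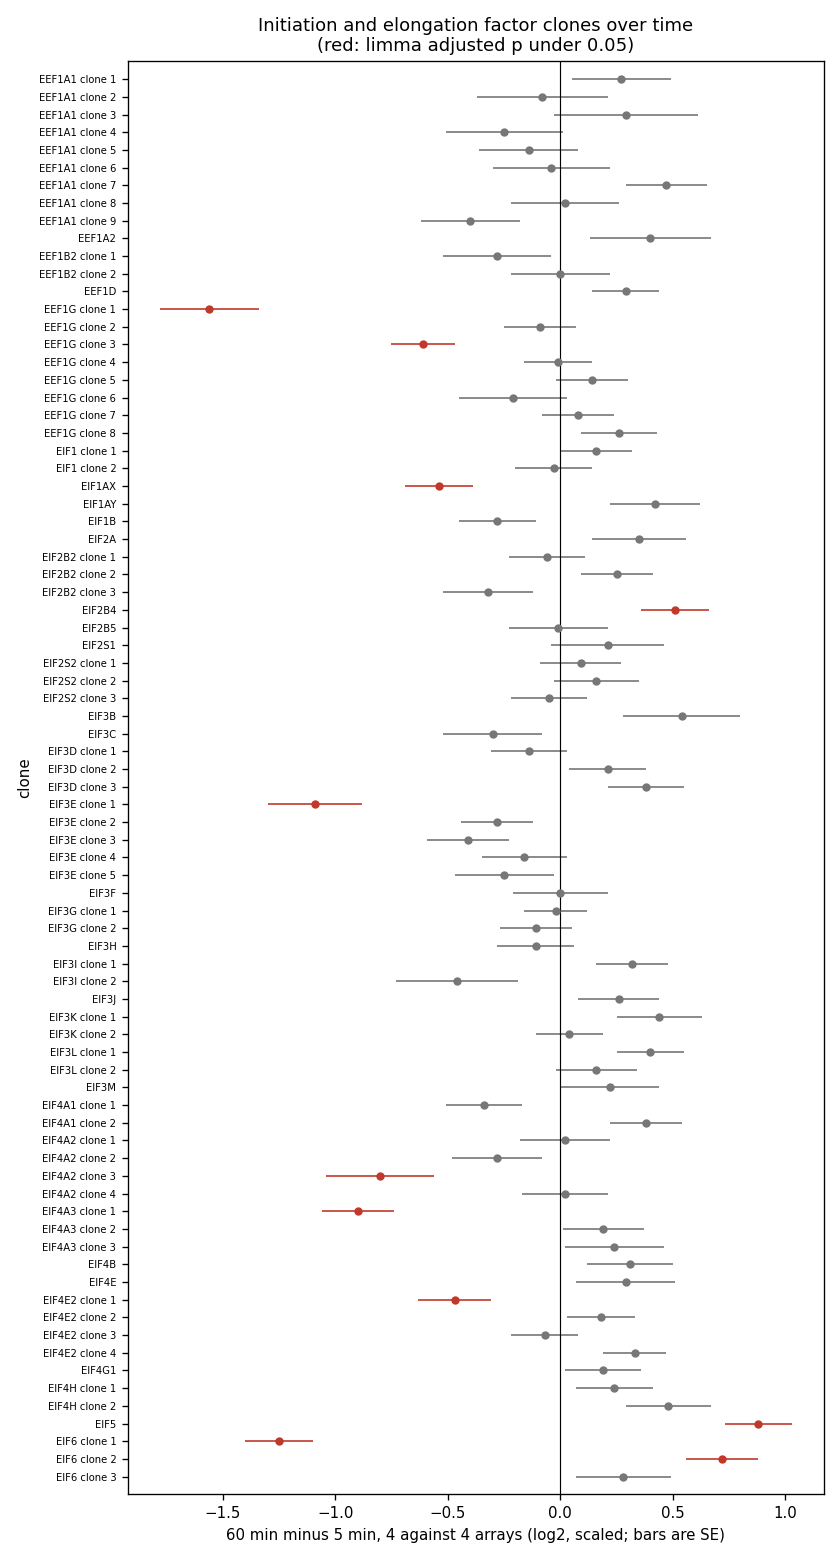
Difference in scaled log2 level between the 60 min and the 5 min arrays (4 against 4) for each initiation and elongation factor clone, with its SE from the limma fit. Red marks an adjusted p under 0.05. The 3 EIF6 clones lay at -1.25, 0.72 and 0.28, and the EEF1G clones from -1.56 to 0.26.

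When the medians of print position and block were removed from each array, 3 of the 13 calls remained (EIF4A3 clone 1, EIF5 and EIF6 clone 1), 7 other factors were called, and EIF2B4 was at -0.06. Of all spots 13.9% were called in that fit. EEF1G clone 1 was then at -0.66 (limma adjusted p 0.0736). Leaving out the 5 min BiC/4AP array, the 5 min BiC/4AP array with ActD, the 60 min Block array or the 60 min Block array with ActD gave 8 called factors each. The share of all spots called in those fits is not given here, so these counts are not read as a result about the factors. Over the 12 arrays left out in turn, EIF5, EIF6 clones 1 and 2, EEF1G clones 1 and 3, EIF3E clone 1 and EIF4A3 clone 1 were called in all 12 fits, EIF1AX, EIF2AK1 and EIF4A2 clone 3 in 7, EIF2B4 and EIF4EBP3 in 6 and EIF4E2 clone 1 in 4.

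Between 30 and 5 min 0 factors were called (0.406% of all spots; unadjusted p was under 0.05 for 15.2%). The lowest p was that of EIF3E clone 1, at -0.95 ± 0.21 with a limma adjusted p of 0.0742. EIF2AK1 followed with -0.82 ± 0.22, and on the higher side the dim EIF4EBP3 had 0.60 ± 0.17, EIF5 had 0.48 ± 0.15 and EIF6 clone 2 had 0.43 ± 0.16. EIF3B (0.69 ± 0.26) and EIF2S1 (0.58 ± 0.25) were higher too and EIF6 clone 1 (-0.46 ± 0.15) and EIF4A2 clone 3 (-0.66 ± 0.24) lower, with limma adjusted p-values of 0.115 to 0.281 from EIF2AK1 on. Between 60 and 30 min 4 factors were called (4.44%, against 3.15% of all spots), all lower at 60 min (3.1% of all spots). EIF4A3 clone 1 fell by 0.92 ± 0.16 (limma adjusted p 0.0019), EEF1G clone 1 by 1.19 ± 0.22 (0.00375), EIF6 clone 1 by 0.79 ± 0.15 (0.00528) and EEF1G clone 3 by 0.55 ± 0.14 (0.0471). The smallest p-values above 0 were those of EIF3L clone 1 (0.45 ± 0.15), EIF5 (0.40 ± 0.15), EEF1A1 clone 1 (0.53 ± 0.22) and clone 7 (0.36 ± 0.18), with limma adjusted p-values of 0.14 to 0.363. Without the medians of position and block, EIF4A3 clone 1 and EIF6 clone 1 were again called. The call of EEF1G clone 3 was kept in 1 of the 12 fits that left out an array, and without the 30 min BiC/4AP array 5 factors and 771 of all spots were called.

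How far clones of a gene shared a sign can be read over the 19 genes with several clones. All clones of a gene lay on the same side of 0 in 9 genes for activity over all times, in 8 at 30 min, in 7 for 60 against 5 min and in 4 for 30 against 5 min. Clones of a gene share the RNA of an array and are not replicates.

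Other genes of protein synthesis were read as lists beside the factors. At 30 min over both arms, 0 clones of any list were called. The 25 clones of cytosolic tRNA synthetases, which charge the tRNAs that eEF1A delivers, were 7 above and 18 below 0 with a median of -0.11, and the 154 ribosomal protein clones 21 above and 133 below with a median of -0.42. The 14 clones of mTOR signalling genes had a median of -0.03, the 3 clones of termination factors 0.01, the 4 of poly(A)-binding proteins 0.04, the 4 of enzymes that modify EIF5A 0.04 and the 3 of mitochondrial factors 0.13. For 60 against 5 min, where 9.14% of all spots were called higher and 10.4% lower, 4 tRNA synthetase clones were higher and 2 lower, 3 mTOR signalling clones were lower, 1 termination and 1 EIF5A modification clone were lower and 1 mitochondrial factor clone was higher. Ribosomal protein clones were higher in 10 cases and lower in 12, and 0 poly(A)-binding clones were called.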

How the data were processed

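RNA of 12 samples was labelled with a radioactive nucleotide and hybridized to nylon filters spotted with human cDNA. The deposited values were raw spot intensities on a linear scale, which the authors read from phosphor screens and did not normalize between arrays. The value table of the series held the same numbers (100% identical). Spots were matched to symbols by the first of the table's 2 spot indices, which was chosen because under it ribosomal proteins and elongation factors, abundant in any cell, were bright (elongation median percentile 89.4 against 56.4 under the other index). Of 9600 spots 8496 carried 1 symbol, 21 several and 1083 none here, and spots with several were not used. The 384 spots at the last position of each block were treated as blank, and a value of exactly 10 in 232 spots as a placeholder, which no factor spot held.

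Log2 intensities were centred on the mean of each array, divided by its SD and multiplied by the mean SD, 1.75. limma 3.58.1 in R 4.3.3 (lmFit, eBayes with an intensity trend, two-sided) was fitted on all spots with Benjamini-Hochberg adjustment over them and a threshold of 0.05, with time, activity and ActD as terms. Fits were tested on simulated data. No condition was repeated, and the labels number every sample as the same biological replicate, so a p-value here reflects only how single pooled samples vary, which may be technical. The factors, lists and tests were chosen with earlier results of these data known. Clones were named by a rule: all elongation factor genes, the main initiation factor subunits where a comparison is described, and the 4 clones with the smallest p in each direction among spots above the lowest 25% of intensity (mean intensity 27.7).

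Alternatives were centring on the median, quantile normalization, normexp with an offset of 50, leaving out dim, blank or placeholder spots, removing position and block medians, no intensity trend, the brightest clone of each gene, another class for EIF5A, EIF6 and EIF4A3, and leaving out each array. The number of arrays limits the precision. Marker lists were read on the 30 min pair without ActD, where 4 oligodendrocyte marker clones had a median of 0.18, 4 microglia marker clones -0.25, and 3 clones of fibroblast and vessel markers -0.08.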

Additional observations from a re-analysis of the deposited data

Results flagged for a closer look

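Among 30 sets of 6 pair differences (BiC/4AP minus Block), 1 had a value far from the others. For EIF2S2 clone 1, the beta subunit of eIF2, the difference was -0.81 at 30 min without ActD and -0.12 to 0.18 in the other 5 pairs, and the gap was 0.69 of the whole range. Chance flags about 1 in 20 such sets. The value rests on the 30 min BiC/4AP array, which stood apart over all spots, and its part in the value was not tested.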

How the results depend on the processing

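No paired analysis was possible by replicate number, because all samples carry the same one. With the 6 pairs of arrays that share time and ActD, or time and activity, as blocks, an alternative chosen after seeing the data, activity and ActD each called 0 factors and 0 spots (unadjusted p under 0.05 for 6.73% and 2.68% of all spots). The counts of 0 called factors for activity over all times, at 5 min and at 60 min, for ActD and for the interaction were 0 under every alternative run. Leaving out an array gave 0 to 20 called factors for activity at 30 min, 0 to 1 for 30 against 5 min (1 without the 30 min Block array), 8 to 16 for 60 against 5 min and 3 to 5 for 60 against 30 min. For most of these fits the share of all spots called is not given, so the counts are not read as a result about the factors. The initiation median of activity at 30 min ran from -0.24 to -0.01 and the elongation median from -0.45 to -0.02. With the brightest clone of each gene the elongation median for 60 against 5 min was 0.27. Co-regulated factors numbered 1 at 5 min and 2 at 30 min, both without the lowest 25% of spots and without blank and placeholder spots, and 0 at 60 min without the lowest 25%. For these counts too the share over all spots is not given. With position and block medians removed EIF2B4 turned to -0.06 for 60 against 5 min, where 1336 of all spots were called, and with normexp 3184. For 30 against 5 min 99 of all spots were called with normexp, 1 with position and block medians removed and 4 without the trend, and for 60 against 30 min 502 with quantile normalization. Causes of these differences were not tested.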
